A study of Mus musculus with 4 samples.

Results

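The 7 genes described here encode subunits of the GABA-A receptor: the alpha subunits Gabra2, Gabra3, Gabra4 and Gabra5, the beta subunits Gabrb1 and Gabrb2, and the delta subunit Gabrd. They were taken by gene symbol from the 40091 genes listed across 4 single-nucleus RNA-seq libraries of mouse thalamus, and all 7 were listed in all 4 libraries. The animals were WT adult C57BL6 mice aged 7 to 8 weeks. The 2 NS libraries came from mice given saline, and the 2 COL libraries from mice given Coll IV (collagenase, at 0.01 U per 10 nl in saline) in the VPM and VPL, the sensory relay nuclei of the right thalamus, as a model of thalamic haemorrhage. Each library pooled thalamic tissue of 3 mice taken on day 7, so the spread between libraries is a spread between pools, and differences among single mice were not measured. No transgene or deletion was carried by either group.

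GABA-A receptors are chloride channels built from several subunits around a central pore, and GABA opens them. Alpha and beta subunits together form the GABA binding site, a gamma subunit tends to place the receptor at synapses, and the delta subunit replaces gamma in receptors that lie outside synapses and carry a steady, tonic current. In the thalamus, relay neurons are excitatory (glutamatergic) and are known for tonic inhibition through receptors with alpha4, beta2 and delta subunits, whereas the GABA neurons of the reticular nucleus that inhibit them are known for alpha3 receptors. The gene Gabra4 encodes alpha4, Gabrb2 encodes beta2 and Gabrd encodes delta.

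Of 32332 barcodes, 32291 nuclei were kept, and the library totals lay between 68746459 and 77557870 UMIs (unique molecular identifiers, 1 per captured RNA molecule). Nuclei were assigned to classes by marker genes, and neurons were then split by their transmitter genes: at least 3 UMIs of Gad1, Gad2 (the GABA-synthesizing enzymes) and Slc17a6 (the vesicular glutamate transporter of thalamic relay cells), with at least 80% of them from one side. This gave 1904 glutamatergic and 3124 GABA neurons, while 8689 neurons fell in neither gate. The gate favoured deep nuclei: the median depth per library was 14680 to 22522 UMIs in glutamatergic neurons, 9179 to 15406 in GABA neurons and 8838 to 13500 in the neurons outside both gates. The other classes were 2691 astrocytes, 1386 oligodendrocyte precursors (OPC), 9199 oligodendrocytes and 1781 microglia. Levels are given as CPM, the gene's UMIs in a class and library over all UMIs there, scaled to the usual CPM unit, and are compared between classes or groups and never between genes. Any 2 libraries shared 8 to 31 barcodes.

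Every glial class carried RNA of neurons. The summed level of 8 neuron markers was 27606 to 32147 CPM in the 2 gated neuron classes and 5796 to 8530 CPM in microglia, where none of the 8 was at 0. Microglia, which are not neurons, held Slc17a6 at 56.2 to 116 CPM and Gad2 at 34.8 to 105 CPM. The microglial level of each subunit gene is therefore printed beside the neuronal one, and a level at or below it was not told apart from background. Microglia were shallower than neurons, at a median of 2067 to 4279 UMIs per library. The 8 oligodendrocyte markers summed to 1403 to 3029 CPM in microglia and 534 to 1015 CPM in GABA neurons. The microglial level can thus lie above the foreign RNA of neurons, and a gene at that level may still be expressed in them.

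The 7 genes lie at 5 places in the genome (build GRCm38, the files' mm10), and all are protein coding. Gabra2 (ENSMUSG00000000560, chr5:70957597-71095849, minus strand), Gabra4 (ENSMUSG00000029211, chr5:71569749-71658308, minus strand) and Gabrb1 (ENSMUSG00000029212, chr5:71658113-72149037, plus strand) form one cluster. Gabra5 (ENSMUSG00000055078, chr7:57407672-57510059, minus strand), Gabrb2 (ENSMUSG00000007653, chr11:42419757-42629028, plus strand), Gabrd (ENSMUSG00000029054, chr4:155384980-155398112, minus strand) and Gabra3 (ENSMUSG00000031343, chrX:72432681-72656848, minus strand) lie apart from it. Gabra4 and Gabrb1 stand head to head, with their first 196 bases overlapping on opposite strands. Whether the counting used strand is not given in the sources used here, so reads of Gabra4 and Gabrb1 in the shared stretch may not have been told apart.

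RefSeq start-site windows (GRCm38.p6) matched 6 of the 7 genes, all but Gabrd. The bases before the start are shown for 3 members that differ in the kind of neuron that carries them: Gabra4 and Gabrb2, which were higher in glutamatergic neurons, and Gabra2, which was higher in GABA neurons. Bases inside annotated exons were left out, which trims the Gabra4 stretch to 195 bases, since the next 55 reach into the first exons of Gabrb1. Capitals mark matches on either strand to GGGCGG (the GC box) or TATAAA (the TATA box), and no 2 matches overlapped.
Gabra4, chr5:71658364-71658558, minus strand: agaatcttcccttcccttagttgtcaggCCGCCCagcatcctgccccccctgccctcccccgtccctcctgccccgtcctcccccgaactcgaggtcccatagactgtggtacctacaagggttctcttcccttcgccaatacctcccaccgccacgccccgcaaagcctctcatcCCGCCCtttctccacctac
Gabrb2, chr11:42420190-42420439, plus strand: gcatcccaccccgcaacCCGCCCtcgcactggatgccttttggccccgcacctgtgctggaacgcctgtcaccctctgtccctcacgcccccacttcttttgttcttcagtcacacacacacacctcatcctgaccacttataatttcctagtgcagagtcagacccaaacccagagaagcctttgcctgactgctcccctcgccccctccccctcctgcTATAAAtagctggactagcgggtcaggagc
Gabra2, chr5:71095850-71096099, minus strand: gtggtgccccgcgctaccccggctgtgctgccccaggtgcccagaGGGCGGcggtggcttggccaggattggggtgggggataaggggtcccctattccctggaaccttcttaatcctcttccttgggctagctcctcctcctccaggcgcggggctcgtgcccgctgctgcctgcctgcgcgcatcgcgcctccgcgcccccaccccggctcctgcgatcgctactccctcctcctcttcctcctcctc
The GC box was matched 2 times before Gabra4 and 1 time each before Gabrb2 and Gabra2, and the TATA box 1 time, before Gabrb2. Of 32817 windows of all genes, 32.7% held the GC box and 12.4% the TATA box in their 250 upstream bases, and 23.8% and 8.95% in the 195 bases that correspond to the Gabra4 stretch. The Gabrb2 stretch lies inside the annotated gene, downstream of an earlier start. CTTTGA (the core of TCF/LEF sites, 13.8% of windows), CACGTG (an E-box, 6.02%) and TGACGTCA (the cyclic AMP response element, 1.55%) were searched too. These letters were in none of the 3 stretches. Of the stretches not printed, that of Gabra3 held CTTTGA 1 time and TATAAA 1 time, and that of Gabra5 held none of the motifs searched.

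The delta subunit gene Gabrd stood above the microglial level in 4 of 4 libraries in glutamatergic neurons alone among the 6 classes. It measured 43.2 and 64.1 CPM in NS replicates 1 and 2 and 47.1 and 33.6 CPM in COL replicates 1 and 2. In GABA neurons the same libraries gave 8.66, 6.53, 15.2 and 4.04 CPM, and in microglia 9.55, 16.1, 12.9 and 7.89 CPM. Every glutamatergic value thus lay above every value of the other classes, and the GABA neurons exceeded their own library's microglia in 1 of 4 libraries. When each nucleus was thinned to 2000 UMIs, 3.86% to 11.6% of glutamatergic nuclei held a Gabrd UMI, against 0.803% to 3.34% of GABA nuclei and 1.41% to 3.16% of microglia. Without thinning these ranges were 29.6% to 51.25%, 6.1% to 17.9% and 2.6% to 5.44%. Nuclei under 2000 UMIs were left out of the thinned shares: none of the neurons and 11 to 168 microglia per library.

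Gabra4, which encodes the alpha subunit that partners delta in relay cells, had the same order of neuron classes. Its glutamatergic level was 271 and 394 CPM in NS and 331 and 165 CPM in COL, while GABA neurons held 67.5 and 47.1 CPM in NS and 82.9 and 45 CPM in COL. The GABA values overlapped those of microglia (56.3, 55.1, 87 and 42.3 CPM) and lay above them in 2 of 4 libraries. Astrocytes came second, at 74.1 to 103 CPM, and exceeded microglia in 4 of 4 libraries by 1.1 to 1.86 times. The levels of astrocytes, GABA neurons, microglia, OPC and oligodendrocytes overlapped from each to the next.

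Gabrb2, whose beta2 subunit is widespread in the brain and a partner of alpha4 and delta in the thalamus, followed a graded order. Glutamatergic neurons held 448 and 569 CPM in NS and 471 and 406 CPM in COL. GABA neurons held 287 and 364 CPM in NS and 343 and 326 CPM in COL. The classes did not overlap, and OPC (164 to 209 CPM) lay below both without overlapping them or microglia (64.7 to 149 CPM). Oligodendrocytes and astrocytes were lowest, at 51.4 to 114 and 56.3 to 118 CPM.

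Gabra2 encodes an alpha subunit of synaptic receptors. It measured 405 and 291 CPM in GABA neurons of NS and 375 and 322 CPM in those of COL, against 286, 213, 267 and 262 CPM in glutamatergic neurons in the same order. Each GABA value lay above all 4 glutamatergic values. Astrocytes overlapped the glutamatergic range with 177 to 260 CPM and exceeded microglia (49.3 to 108 CPM) in 4 of 4 libraries by 1.75 to 4.68 times, so the gene was present in astrocytes above the neuronal RNA found in microglia.

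Gabra3, the alpha subunit of reticular nucleus receptors, stood at 143 and 137 CPM in GABA neurons of NS and 133 and 132 CPM in those of COL. Glutamatergic neurons held 134, 89.6, 111 and 100.2 CPM, and the ranges of the 2 classes overlapped. The GABA class was set by transmitter genes and not shown to be reticular. The 6 reticular thalamic markers summed to 983 to 1434 CPM in GABA and 740 to 977 CPM in glutamatergic neurons. In the edgeR comparison given below, 5 of them were called higher and 1 lower in GABA neurons. OPC carried it too, at 68.3 to 101 CPM, 1.7 to 3.07 times the microglial level of the same library, and did not overlap microglia, oligodendrocytes or astrocytes. Gabra5, an alpha subunit known from receptors outside synapses in the hippocampus, was found in both neuron classes: 41.9 to 55.1 CPM in GABA and 41.5 to 59.5 CPM in glutamatergic neurons, against 11.4 to 24.4 CPM in microglia. The other glial classes overlapped microglia.

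Gabrb1 differed from all other members in its leading class, which was the astrocyte. Astrocytes held 2202 and 2434 CPM in NS and 3122 and 2860.1 CPM in COL. Glutamatergic neurons held 1439.6, 1215, 1298 and 1059 CPM and GABA neurons 1168, 888, 1042 and 1008 CPM. All astrocyte values lay above all neuronal ones, by 1.53 to 2.7 times over the glutamatergic level of the same library, and the 2 neuron classes overlapped. With 2000 UMIs per nucleus, 94.2% to 96.5% of astrocytes held a Gabrb1 UMI (98% to 100% unthinned), against 27.5% to 53.2% of microglia (27.7% to 78.5% unthinned).

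**Figure D1:**
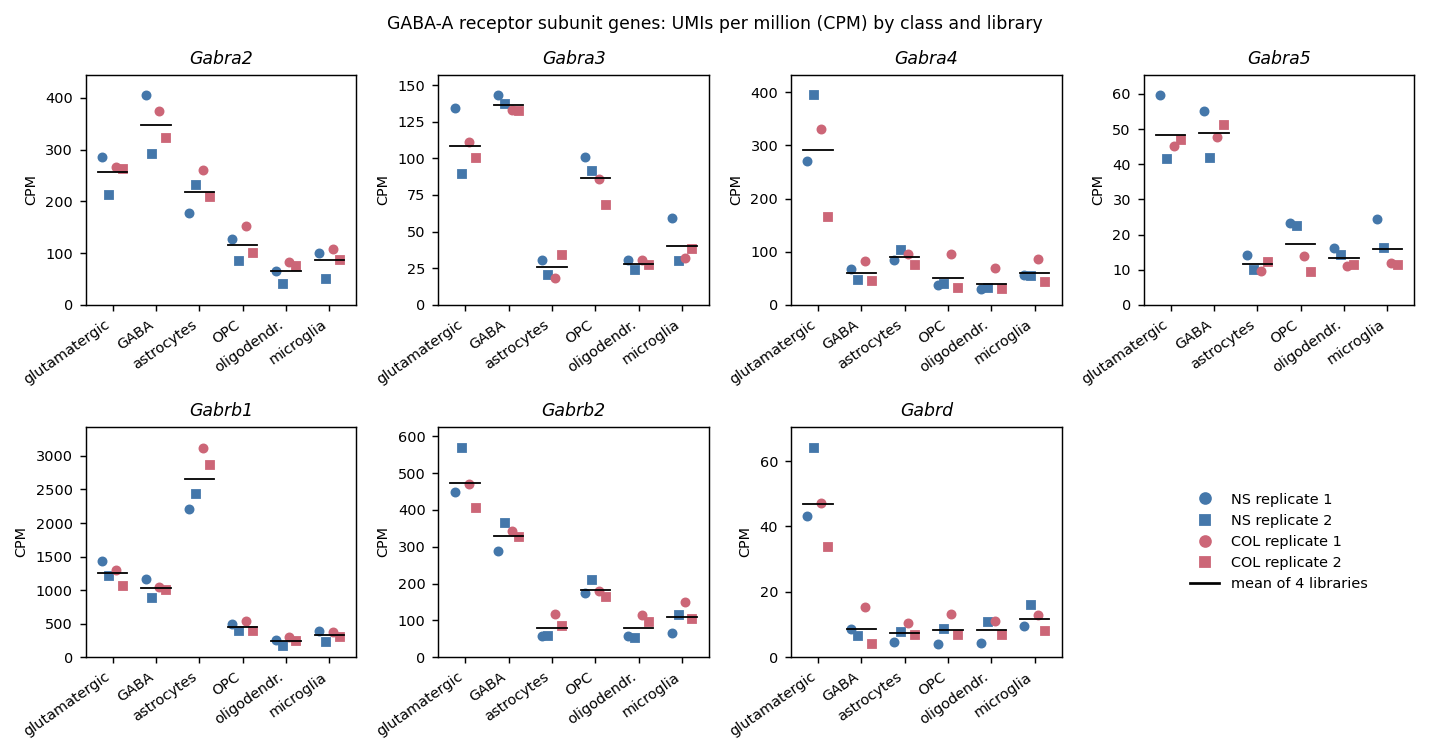
Level of each subunit gene in 6 classes of nuclei; the y axis of each panel is CPM from 0, points are the 4 libraries (blue NS, red COL) and black lines their means. Gabrd and Gabra4 stand apart in glutamatergic neurons (33.6 to 64.1 and 165 to 394 CPM) and Gabrb1 in astrocytes (2202 to 3122 CPM). Gabra2 in GABA neurons (291 to 405 CPM) lies only narrowly above its glutamatergic range (213 to 286 CPM).

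GABA and glutamatergic neurons come from the same libraries, and the members were no part of the gate, so their levels were compared with the library as a block (edgeR quasi-likelihood test over 17522 genes, Benjamini-Hochberg adjusted). Of the 7 genes 5 passed, 1 higher and 4 lower in GABA neurons; over all genes tested 27.8% passed. Gabrd was 6.05-fold lower (log2 fold change -2.6 ± 0.22 SE, adjusted p = 2.36e-05) and Gabra4 5.14-fold lower (-2.36 ± 0.17, adjusted p = 1.01e-05), each in 4 of 4 libraries. Gabrb2 was 1.58-fold lower (-0.66 ± 0.08, adjusted p = 0.000316) and Gabrb1 1.35-fold lower (-0.43 ± 0.09, adjusted p = 0.00613), again in 4 of 4. Gabra2 was the one called higher, by 1.22-fold (0.29 ± 0.06, adjusted p = 0.00808) and in 4 of 4 libraries.

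Gabra3 (0.19 ± 0.09, adjusted p = 0.126, higher in 4 of 4 libraries) and Gabra5 (-0.12 ± 0.07, adjusted p = 0.269) did not pass. The interval of the difference was 0.00 to 0.38 for Gabra3 and -0.28 to 0.05 for Gabra5 on the log2 scale (95%). The calls of Gabra2 and Gabrb1 were lost without NS replicate 2 and without the library block. Without NS replicate 2 their log2 fold changes were 0.30 and -0.36 with adjusted p of 0.0512 and 0.0624, and without the block the adjusted p values were 0.187 and 0.0731. Gabra3 was called higher without NS replicate 1 (0.29, adjusted p = 0.0393), with plain UMI totals (0.34, adjusted p = 0.0099) and with a gate of at least 1 transmitter UMI (0.22, adjusted p = 0.0275), a gate chosen after seeing the data. Gabra2 also missed the threshold when nuclei were thinned to 2000 UMIs (0.19, adjusted p = 0.186). The calls of Gabrd, Gabra4 and Gabrb2 held in every alternative run.

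**Figure D2:**
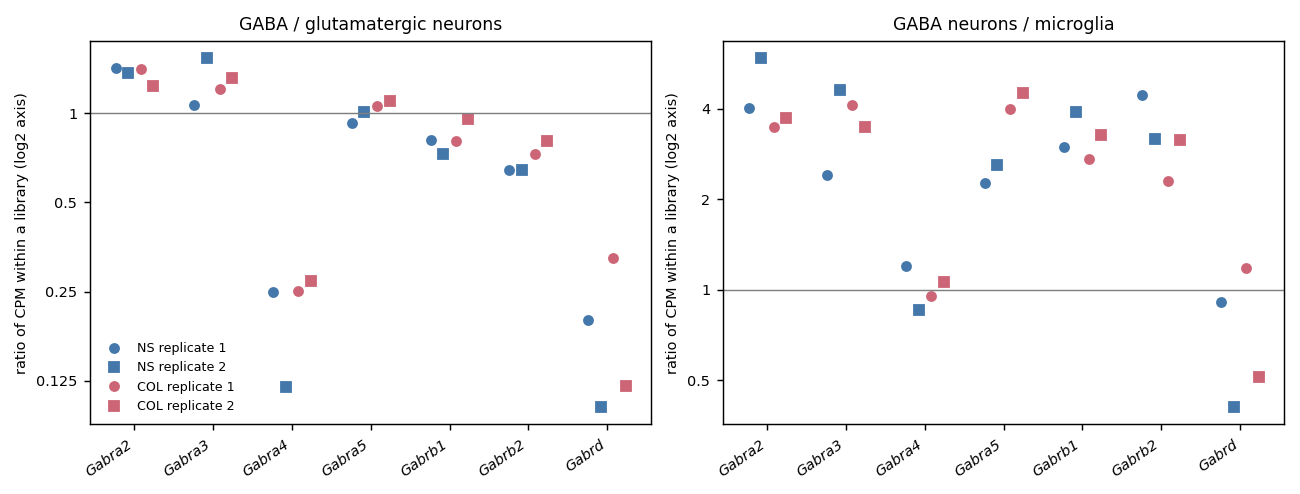
Ratio of CPM within each library on a log2 axis, GABA over glutamatergic neurons (left) and GABA neurons over microglia (right); points are the 4 libraries and the grey line marks equal levels. On the left Gabra4 (0.119 to 0.272) and Gabrd (0.102 to 0.323) lie far below 1 and Gabra2 (1.23 to 1.41) above it, and on the right Gabra4 and Gabrd lie around or below 1.

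Within the glutamatergic neurons, Gabrd and Gabra4 separated nuclei with and without Tcf7l2, a transcription factor of thalamic relay neurons. Tcf7l2 was at 564 to 806 CPM in glutamatergic and 67.2 to 145 CPM in GABA neurons, and also at 542 to 729 CPM in astrocytes and 273 to 407 CPM in microglia. At least 2 UMIs of Tcf7l2 were found in 69.5% (95% exact binomial interval 65.1 to 73.7) and 80.9% (76.6 to 84.7) of glutamatergic nuclei in NS and in 92.7% (90.4 to 94.6) and 74.9% (70.5 to 79) in COL. The intervals cover counting error only. The nuclei with Tcf7l2 were also the deeper ones, at a median of 16402 to 22973 UMIs against 10512 to 19282. Gabrd measured 54, 72.6, 49.8 and 42.1 CPM with Tcf7l2 and 3.46, 5, 5.19 and 2.2 CPM without it (NS replicates 1 and 2, then COL replicates 1 and 2). The level with Tcf7l2 was 9.6 to 19.1 times higher. These ratios are rough, since the values without Tcf7l2 rest on 6, 4, 5 and 4 UMIs in 141, 74, 47 and 104 nuclei. Gabra4 measured 331, 443, 347 and 196 CPM with and 51.3, 52.5, 89.2 and 53.4 CPM without Tcf7l2. In neither gene did the 2 kinds of nuclei overlap, and without Tcf7l2 both stood near or under the microglial level.

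The other members moved less or the other way. Gabrb2 was 1.08 to 2.07 times higher with Tcf7l2 in 4 of 4 libraries. Gabra2 and Gabra5 were lower with Tcf7l2 in 4 of 4 libraries, at 0.601 to 0.744 and 0.571 to 0.797 times the level without it. Gabra3 and Gabrb1 lay on both sides of 1 across the libraries. These values are a description of nuclei that share a library and were not tested.

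Among GABA neurons, nuclei with at least 2 UMIs of Dlx6os1, a transcript of forebrain GABA neurons, were compared with those that had none. They made up 24.1%, 5.34%, 23.7% and 15% of the GABA nuclei, and NS replicate 2 held only 35 of them. Gabrb1 was 1.11 to 1.28 times higher with Dlx6os1 in 4 of 4 libraries. Gabra3 was level in NS replicate 1, at 1.00 times, and 1.17 to 1.32 times higher in the other 3 libraries. The remaining 5 members had ratios on both sides of 1. No member separated these 2 kinds of GABA neurons the way Gabrd and Gabra4 separated the glutamatergic ones.

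**Figure D3:**
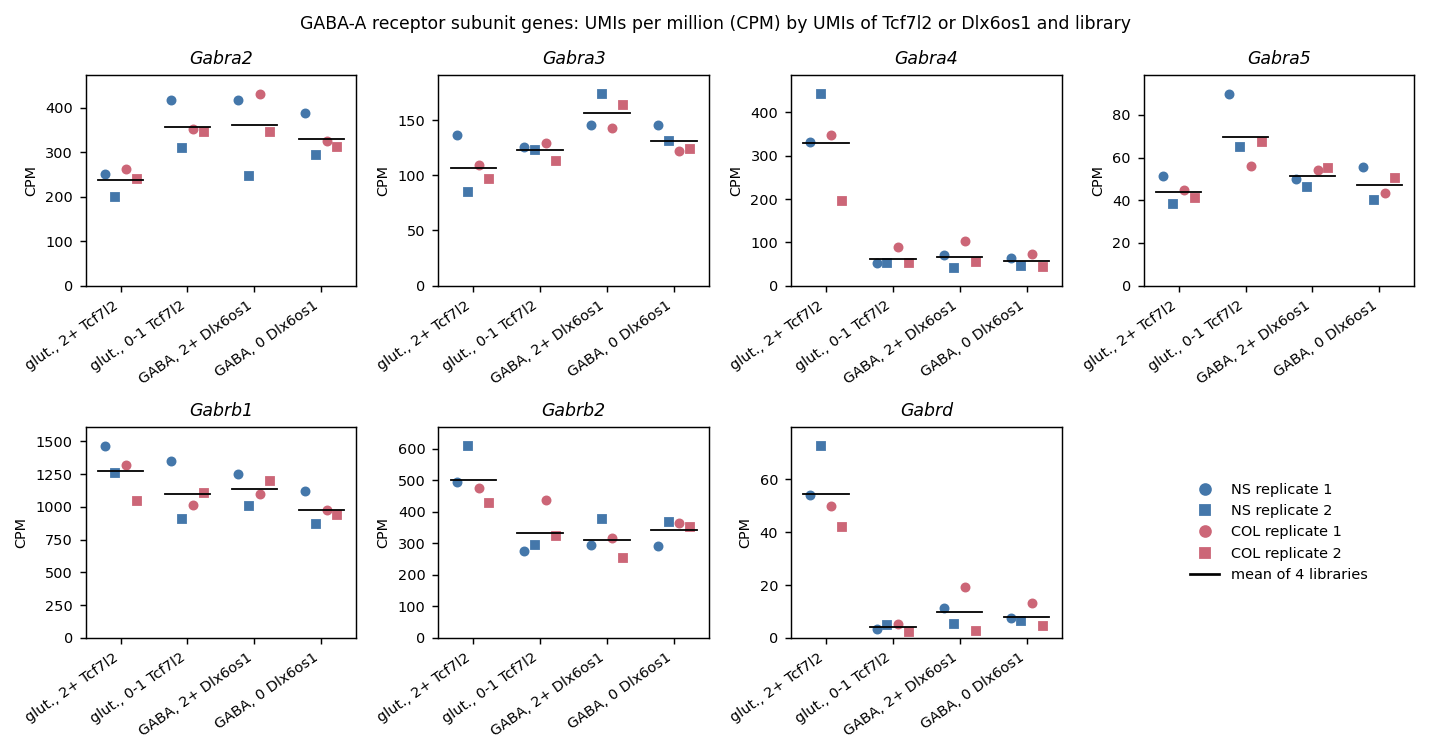
Level of each subunit gene (CPM, y axes from 0) in glutamatergic nuclei with 2 or more and with 0 or 1 UMIs of Tcf7l2, and in GABA nuclei with 2 or more and with 0 UMIs of Dlx6os1; points are libraries and lines means of 4. Gabra4 and Gabrd are high in the glutamatergic nuclei with Tcf7l2 alone (196 to 443 and 42.1 to 72.6 CPM).

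The genes whose level across 24 sums (6 classes in 4 libraries) was most like each member were found among 13255 genes with a mean of at least 10 CPM in some class. Pearson's r of log2(CPM + 1) is given as a description, since the sums share libraries and classes. Gabrd was most like Ptpn3 (0.944), Snx31 (0.917) and Adamts19 (0.915). Gabra4 was most like Cox7b2 (0.95), Trpm6 (0.927) and Ccdc136 (0.92). Cox7b2 lies on the same strand of chromosome 5, 21544 bases past the 3' end of Gabra4.

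Gabrb2 was most like Ryr3 (0.99), Nrg3 (0.984) and Zfp804a (0.98), of which Nrg3 is one of the neuron markers used for the classes. Gabrb1 was most like Actr3b (0.973), Gulp1 (0.968) and Gria1 (0.963), the last a subunit of AMPA glutamate receptors. Gabra2 was most like Ccdc85a (0.955), Ccdc148 (0.949) and Arhgap26.1, a further entry under the symbol Arhgap26 (0.945), Gabra3 like Trpc5 (0.968), Rab27b (0.964) and Syt16 (0.964), and Gabra5 like Clstn3 (0.965) and Kif5a (0.955).

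Of the 12 other subunit genes listed, 8 passed the filter on low counts and 5 were called between the neuron classes, where 27.8% of all genes were. The 5 were higher in GABA neurons: Gabrg1 (0.89 ± 0.07, adjusted p = 1.37e-05), Gabrr2 (1.84 ± 0.25, adjusted p = 0.000466), Gabrq (1.14 ± 0.23, adjusted p = 0.00423), Gabrg3 (0.37 ± 0.09, adjusted p = 0.0109) and Gabre (1.51 ± 0.36, adjusted p = 0.0117). The median over the 8 was 0.63, over the 7 members -0.43 and over all genes tested 0.04. Gabra6, Gabrp, Gabrr1 and Gabrr3 did not pass the filter.

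Among partners and other parts of GABA signalling, Slitrk3, an adhesion protein of inhibitory synapses, was lower in GABA neurons (-0.75 ± 0.08, adjusted p = 0.000122) and Nlgn2, another one, higher (0.24 ± 0.07, adjusted p = 0.027); 2 of 7 partners tested were called, a share near the 27.8% of all genes. All 7 tested genes of GABA synthesis, transport and breakdown were higher, but Gad1 and Gad2 were part of the gate. Among the others was the vesicular GABA transporter Slc32a1 (2.48 ± 0.14, adjusted p = 2.2e-06). Of 5 GABA-B receptor genes tested, Gabbr2 (-1.5 ± 0.1, adjusted p = 4.4e-06) and Gabbr1 (-0.39 ± 0.07, adjusted p = 0.00174) were lower and the auxiliary subunit Kctd8 was higher (0.88 ± 0.09, adjusted p = 6.79e-05). Neither chloride transporter, Slc12a5 or Slc12a2, was called.

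The question of the model, whether Coll IV changed these genes, was tested class by class on the 4 sums. In glutamatergic neurons none of the 7 passed in edgeR, nor did any gene: 0% of 17057 genes, with 2818 genes and 0 members at an unadjusted p under 0.05. DESeq2 called 358 genes and 0 members. The log2 fold changes of COL against NS ran from -0.37 ± 0.37 for Gabra4 (95% interval -1.25 to 0.51) to 0.12 ± 0.17 for Gabra2 (-0.27 to 0.52). The interval of Gabrd was -1.01 to 0.29. For Gabra4 the 2 COL libraries, at 331 and 165 CPM, lay further apart than the means of the groups, and without COL replicate 1 the gene was called lower (-1.04, adjusted p = 0.0384). The share of nuclei with Tcf7l2 differed among the libraries as given above, and its part in these values was not tested. Within the nuclei with Tcf7l2, whose levels are given above, Gabra4 overlapped between the groups, while Gabrd and Gabrb2 were lower in both COL libraries than in both NS libraries, at 0.726 and 0.817 times the NS mean. In those nuclei edgeR called 0 members and 0 of 16027 genes. An unadjusted p under 0.05 was found for 2536 genes and 0 members.

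In GABA neurons the result was alike in its counts. No member and no gene passed in edgeR (0% of 18654 genes, 4945 genes and 0 members at an unadjusted p under 0.05), while DESeq2 called 1038 genes and 0 members. Fold changes lay between 0.05 ± 0.13 for Gabra3 (-0.25 to 0.35) and 0.48 ± 0.6 for Gabrd (-0.96 to 1.91). Without COL replicate 2, Gabrd was called higher (1.15, adjusted p = 0.0287), at levels around those of microglia. With plain UMI totals the median of all genes moved from 0.01 to -0.12. Lists for kinds of neuron differed between the libraries of this class. The 6 striatum markers summed to 234 and 74.7 CPM in NS and 224 and 79.9 CPM in COL. The 6 hypothalamus and zona incerta markers summed to 75.6 and 51.2 CPM in NS and 26.2 and 30.7 CPM in COL. The part of these differences in the values of the members was not tested.

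Whether the COL and NS difference itself differed between the 2 neuron classes was tested with an interaction term. None of the 7 genes and 0% of 18889 genes passed in edgeR, with 1106 genes and 1 member (Gabrb2) at an unadjusted p under 0.05, and DESeq2 called 1 gene and no member. The difference for Gabrb2 was 0.33 ± 0.12 (adjusted p = 0.853) and for Gabra4 0.65 ± 0.28 (adjusted p = 0.86), positive where COL was relatively higher in GABA neurons.

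Of the 4 glial classes, Gabrb2 rose in astrocytes and oligodendrocytes, in both of which its level lay below that of microglia, and it was not called in OPC (-0.11 ± 0.16, edgeR adjusted p = 0.668) or microglia. In astrocytes it was 56.3 and 58.6 CPM in NS and 118 and 84.3 CPM in COL, without overlap, a 1.82-fold rise (log2 0.86 ± 0.2, adjusted p = 0.00941). It was the 1 member of 7 called there, where 17.4% of 14213 genes were called. Gabrb1, the astrocytes' leading member, had all COL libraries above NS and a fold change of 0.43 ± 0.18 (adjusted p = 0.112). Without NS replicate 1, Gabrb2 missed the threshold (0.78, adjusted p = 0.0534), and without COL replicate 2, Gabrb1 passed it (0.51, adjusted p = 0.0244).

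In oligodendrocytes Gabrb2 was 57.4 and 51.4 CPM in NS and 114 and 94.6 CPM in COL, a 2.05-fold rise (1.04 ± 0.18, adjusted p = 0.00695). Gabra2 was 65.2 and 40.8 CPM in NS and 82.5 and 74.5 CPM in COL, a 1.6-fold rise (0.68 ± 0.21, adjusted p = 0.0469). Neither overlapped between the groups. They were the 2 of 7 called, where 22.3% of 17776 genes were called. Other marker lists moved in these sums too. The 8 OPC markers summed to 447 and 389 CPM in NS and 768 and 804 CPM in COL, and the 6 macrophage markers to 1.54 and 2.43 against 40.1 and 105 CPM. The 8 astrocyte markers went the other way, from 380 and 354 to 172 and 205 CPM. OPC held 164 to 209 CPM of Gabrb2 and 84.2 to 153 CPM of Gabra2. The part of RNA from other classes in these rises was not tested. Gabra2 was not called without NS replicate 2 (0.42, adjusted p = 0.394) or with plain UMI totals (0.57, adjusted p = 0.105), and without COL replicate 2 Gabra4 and Gabrb1 were called as well (1.26, adjusted p = 1.55e-06, and 0.59, adjusted p = 0.00646), as was Gabra4 without NS replicate 2 (0.89, adjusted p = 0.0446).

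In oligodendrocytes both genes lay below the microglial level of the same library in 4 of 4 libraries, and so did Gabrb2 in astrocytes. Beside these rises the neuron markers rose or overlapped, while gate genes fell. The summed level of the 8 neuron markers was 4215 and 3152 CPM in NS astrocytes and 7001 and 5837 CPM in COL astrocytes. There 5 of the 8 markers were higher in both COL libraries than in both NS libraries, and 0 were lower in both. In oligodendrocytes the sum was 4314 and 3701 CPM in NS and 7145 and 5994 CPM in COL, with 6 of 8 markers higher and 0 lower. The noncoding RNA Meg3 made up a large part of the sum, at 1899.6 and 1416 CPM in NS astrocytes and 3577 and 2888 CPM in COL ones, and at 1927 and 1730 CPM in NS oligodendrocytes and 3572 and 2947 CPM in COL ones. Rbfox3 overlapped between the groups in both classes, and Snap25 in astrocytes. Of the gate genes, Slc17a6 and Gad1 were lower in both COL libraries than in both NS libraries in these classes. Slc17a6 was 67.9 and 74.3 CPM in NS astrocytes against 47.2 and 46 CPM in COL ones, and 76.6 and 74 CPM in NS oligodendrocytes against 43.9 and 47.1 CPM in COL ones. Gad1 was at 0.507 and 0.542 times its NS mean in COL astrocytes and oligodendrocytes. None of the 8 markers was at 0 in any glial class, and the part of neuronal RNA in the rise of Gabrb2 and Gabra2 was not tested. The number of nuclei differed too: 1219 and 1043 astrocytes in NS against 172 and 257 in COL. Depth differed as well: the median was 3748 and 3326 UMIs in NS astrocytes against 5805.5 and 6778 in COL ones. In oligodendrocytes it was 3216 and 2971 UMIs in NS against 5285 and 5998 in COL. Tests on thinned nuclei were run for neurons only, so the part of depth in the glial rises was not tested.

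OPC and microglia gave no call. In OPC 0 of 7 members passed in edgeR, where 15.8% of 13789 genes did, and 1 member, Gabra5, had an unadjusted p under 0.05; DESeq2 called 0 members. Gabra5 stood at 23.3 and 22.5 CPM in NS and 13.9 and 9.41 CPM in COL, without overlap (-0.96 ± 0.3, adjusted p = 0.0529 in edgeR). Gabra4 was set apart by 1 library, at 36.8 and 40 CPM in NS and 95.4 and 32.3 CPM in COL (0.75 ± 0.39, adjusted p = 0.219). With the replicate number as a block both were called, Gabra5 at -0.95 (adjusted p = 0.0231) and Gabra4 at 0.64 (adjusted p = 0.0173). Without COL replicate 1 Gabra5 was called (-1.25, adjusted p = 0.0268), without NS replicate 2 Gabra4 (0.91, adjusted p = 0.0294), and without COL replicate 2 Gabra4 (1.41, adjusted p = 0.000121) and Gabra2 (0.63, adjusted p = 0.0281). The neuron markers summed to 7872 and 7196 CPM in NS and 9379 and 8270.1 CPM in COL.

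In microglia 0 of 7 members passed in edgeR, where 20.6% of 12746 genes did; 0 members had an unadjusted p under 0.05, and DESeq2 called 0 members. The fold changes ran from -0.77 ± 0.36 for Gabra5 (adjusted p = 0.165) to 0.52 ± 0.28 for Gabrb2 (adjusted p = 0.215). Gabrb2 was called without NS replicate 2 (1.07, adjusted p = 0.0347) and without COL replicate 2 (0.79, adjusted p = 0.0172), the latter together with Gabra4 (0.70, adjusted p = 0.0388). The neuron markers summed to 6909 and 5796 CPM in NS and 8530 and 7292 CPM in COL.

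**Figure D4:**
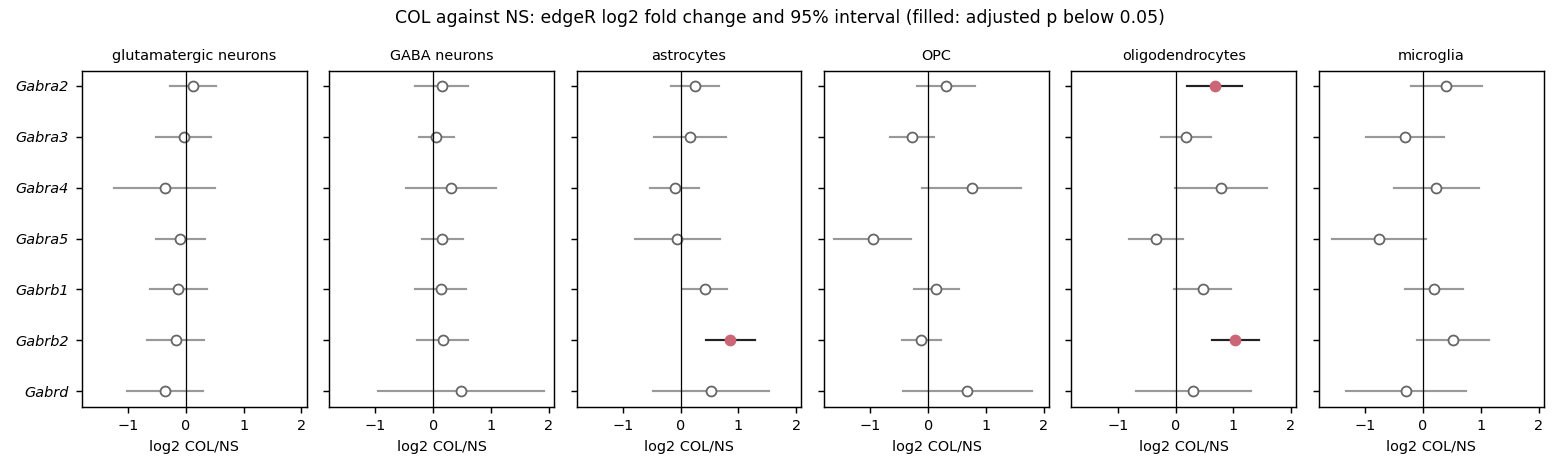
Log2 fold change of COL against NS for each subunit gene in 6 classes of nuclei, with 95% intervals derived from the edgeR F statistic. Filled points have an adjusted p under 0.05, grey intervals belong to genes not called, and the black vertical line marks no difference. Filled points are Gabrb2 in astrocytes (0.86) and Gabrb2 and Gabra2 in oligodendrocytes (1.04 and 0.68), and none of the neuronal points is filled.

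**Figure D5:**
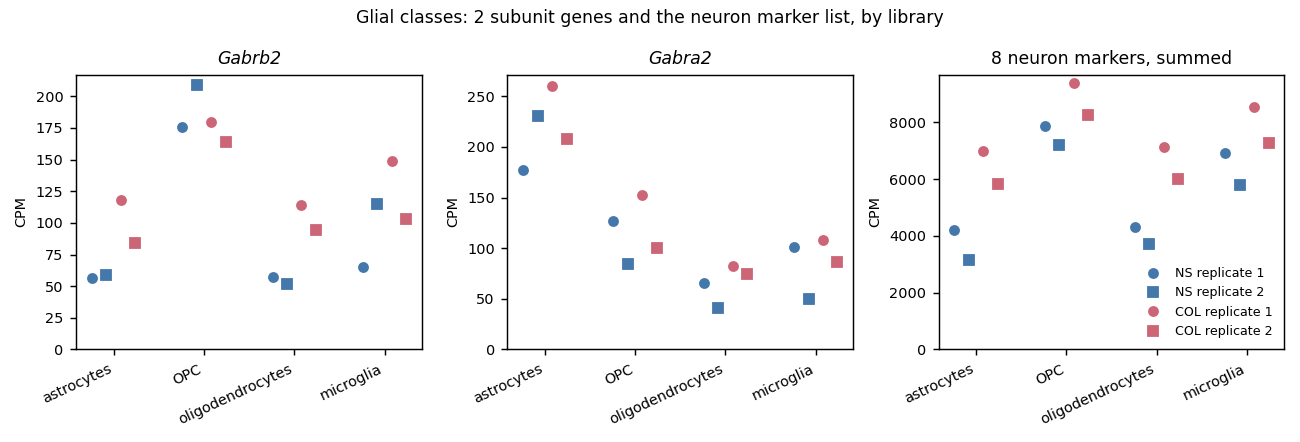
Levels of Gabrb2, Gabra2 and the sum of 8 neuron markers (CPM, y axes from 0) in the 4 glial classes; points are libraries, blue NS and red COL. In oligodendrocytes Gabrb2 (51.4 to 57.4 against 94.6 to 114 CPM) and the marker sum (3701 to 4314 against 5994 to 7145 CPM) were both higher in COL, while Slc17a6, which is not plotted, was lower (74 to 76.6 against 43.9 to 47.1 CPM).

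Among the pathway lists, no gene was called in edgeR in either neuron class for COL against NS, where 0% of all genes tested were. In the glia some genes of GABA synthesis, transport and breakdown were called lower: 4 of 7 tested in astrocytes, OPC and oligodendrocytes and 3 of 7 in microglia. None was called higher, and the GABA-degrading enzyme Abat had a log2 fold change of 0.41 in astrocytes (edgeR adjusted p = 0.0983). Over all genes tested 17.4%, 15.8%, 22.3% and 20.6% were called in astrocytes, OPC, oligodendrocytes and microglia. Slc6a11, the astrocytic GABA transporter, was 1245 and 1032 CPM in NS astrocytes and 692 and 662 CPM in COL astrocytes (-0.68 ± 0.17, adjusted p = 0.0119 in edgeR). It was also lower in microglia, from 80.7 and 68.8 to 8.45 and 16.4 CPM (-2.49 ± 0.31, adjusted p = 0.00076), a class that is not known to use it. Slc32a1 and Gad1, which belong to GABA neurons, also fell in all 4 glial classes, by 1.34 to 1.72 and 0.66 to 1.08 on the log2 scale. In glutamatergic and GABA neurons, where none passed, Slc6a11 was at -1.17 and -0.69 and Slc32a1 at -1.09 and -0.94 on that scale. Gad1, a gate gene, was at 0.13 and 0.08 there. Genes of the lists for kinds of neuron were called in the glia as well. Of 6 hypothalamus and zona incerta markers, Pmch and Hcrt were called lower in all 4 glial classes. The 6 summed to 101 and 80.9 CPM in NS oligodendrocytes and 10.8 and 34.4 CPM in COL ones. Their sum was also lower in both COL libraries in GABA neurons, as given above. In glutamatergic neurons it overlapped, at 59.7 and 35.2 CPM in NS and 10.1 and 37.5 CPM in COL. Of the 6 genes listed for thalamic glutamatergic neurons, 2 were called higher in astrocytes (Lef1 and Synpo2), 2 in OPC (Tcf7l2 and Necab1), 4 in oligodendrocytes (Prkcd, Lef1, Rora and Synpo2) and 0 in microglia. The thalamic list does not tell neurons from astrocytes: it summed to 5043 to 6412 CPM in astrocytes, against 5116 to 6721 CPM in glutamatergic neurons. It was lower in the other glial classes, at 2771 to 3537 CPM in OPC and 1071 to 1594 CPM in microglia. Its sum in oligodendrocytes was 704 and 724 CPM in NS and 1160 and 947 CPM in COL. The part of these shifts in the changes of the subunit and transmitter genes was not tested. Of the other subunits, Gabrg3 rose (0.94 ± 0.24, adjusted p = 0.0244) and Gabrr2 fell (-1.17 ± 0.24, adjusted p = 0.0111) in oligodendrocytes, and 0 of 6, 5 and 5 tested were called in astrocytes, OPC and microglia. Of the partners at inhibitory synapses, 1 of 7 tested was called in astrocytes (Nbea, 0.59 ± 0.16, adjusted p = 0.0244, higher), 0 of 7 in OPC, 1 of 7 in oligodendrocytes (Insyn1, -1.18 ± 0.33, adjusted p = 0.0327) and 1 of 6 in microglia (Nlgn2, -0.87 ± 0.28, adjusted p = 0.0494). Of the 2 chloride transporters, Slc12a5, which extrudes chloride from neurons, was lower in oligodendrocytes (-0.56 ± 0.17, adjusted p = 0.043), and neither was called in the other glial classes. Of the GABA-B receptor genes, 2 of 6 tested were called in astrocytes (both higher), 0 of 6 in OPC, 1 of 5 in oligodendrocytes (higher) and 2 of 5 in microglia (1 higher and 1 lower). The receptor subunit Gabbr1 fell in microglia (-0.77 ± 0.19, adjusted p = 0.0191). The auxiliary subunit Kctd16 rose in astrocytes (0.80 ± 0.21, adjusted p = 0.0174). Kctd8, another one, rose in astrocytes (1.05 ± 0.24, adjusted p = 0.00834), oligodendrocytes (0.80 ± 0.21, adjusted p = 0.027) and microglia (1.00 ± 0.31, adjusted p = 0.0435). In glutamatergic and GABA neurons Kctd8 was at 0.85 and 0.49, not called (edgeR adjusted p = 0.201 and 0.136). Kctd16 was at -0.06 and 0.28 there.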

How the data were processed

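For 4 single-nucleus libraries the authors deposited a table of UMI counts each, genes by nuclei, made with Cell Ranger 1.2.0 on mm10 per the submitters' processing notes, and the counts were used as deposited. Nuclei with over 50 genes and under 5% mitochondrial UMIs were kept. A class needed at least 3 detected markers and a lead of 0.3 in mean log-normalized marker score; this scoring rule was set after the files were seen, and 3114 nuclei got no class. Doublets were not called; leaving out the deepest 10% of nuclei per class served as an alternative. Counts were summed per class and library and tested across libraries with edgeR 4.0.16 (quasi-likelihood, TMM, filter on low counts, Benjamini-Hochberg over all genes, threshold 0.05; R 4.3.3), with DESeq2 1.42.0 as an alternative. Sums were made in Python 3.11.15, and the tests were tried on simulated counts. GABA and glutamatergic neurons were compared with the library as a block. Nothing in the labels says whether replicate numbers pair libraries, so COL and NS were compared without a block. All 7 members are named, with the 5 pathway genes of smallest adjusted p per comparison; other pathway genes were named after their values were seen. Some genes that these rules name are not reported here. The members and lists were chosen with earlier results of these data known. An alternative gate of at least 1 transmitter UMI was added after seeing the data. With 2 pools per group, p-values measure the spread between pools. Positions are from GENCODE vM21, and 0 columns of sample values were left unused.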

Additional observations from a re-analysis of the deposited data

Results flagged for a closer look

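For Gabra5 and Gabrb2 both COL libraries were higher than both NS libraries in some classes and lower in others. The differences between classes were not tested. With 2 libraries per group such an order can arise by chance, and how many of all genes separated in this way was not counted. Of these separations, only those of Gabrb2 in astrocytes and oligodendrocytes were called in edgeR, and the glutamatergic neurons without Tcf7l2 were not fitted. For Gabra5 the mean CPM of COL over NS was 0.507 in OPC, 0.742 in oligodendrocytes and 0.576 in microglia, with both COL libraries below both NS libraries, and 1.14 in GABA neurons with Dlx6os1, with both above, where the NS replicate 2 value rests on 17 UMIs in 35 nuclei. For Gabrb2 it was 1.76 in astrocytes, 1.92 in oligodendrocytes and 1.34 in glutamatergic neurons without Tcf7l2, all above, and 0.817 in glutamatergic neurons with Tcf7l2, below. The oligodendrocyte and astrocyte levels of Gabrb2 lay below those of microglia in every library.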

How the results depend on the processing

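With 2 libraries per group each COL and NS result rests on single libraries. Leaving out 1 library at a time, the members called numbered 0 to 1 in glutamatergic neurons, 0 to 1 in GABA neurons, 0 to 2 in astrocytes, 0 to 2 in OPC, 2 to 4 in oligodendrocytes, 0 to 2 in microglia, 3 to 6 between GABA and glutamatergic neurons and 0 for the interaction; an arm with 1 library is assumed to vary like the other. Other alternatives that moved the number called by more than 1.5 times gave 2 in OPC with no filter on low counts and 2 with the replicate block, 1 in oligodendrocytes with plain UMI totals and 4 with no filter, 1 in microglia with no filter and 3 without the deepest 10% of nuclei (Gabra2, Gabrb2 and Gabrb1), 3 between neuron classes without the library block (Gabra2 and Gabrb1 lost), and 1 (Gabra4) for the interaction with no filter. Smaller moves between the neuron classes, from 5 called, were 6 with plain UMI totals and 6 with at least 1 transmitter UMI (Gabra3 gained in both) and 4 with thinning (Gabra2 lost). The cause was not tested. Same-numbered NS and COL libraries deviated together with correlations of 0.065 to 0.161. With 2 pairs this cannot show whether the replicate numbers pair libraries. Under the replicate block Gabra4 was also called in oligodendrocytes (0.65, edgeR adjusted p = 0.00606). Over all genes the block gave 288 calls against 0 in glutamatergic and 1229 against 0 in GABA neurons, and more calls in each glial class.

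Over all genes, other counts moved by more than 1.5 times. No filter gave 1629 in glutamatergic neurons, 3512 in GABA neurons and 165 for the interaction, against 0 each. DESeq2 gave 1102 against 2472 in astrocytes, 936 against 2176 in OPC and 1379 against 2632 in microglia. Thinning gave 229 against 0 in GABA neurons and 1773 against 4872 between the neuron classes, where leaving out the block gave 2534. Without 1 library the counts ran from 0 to 1693 in glutamatergic neurons, 0 to 2729 in GABA neurons, 1343 to 3199 in astrocytes, 1235 to 3107 in OPC, 2153 to 6991 in oligodendrocytes, 1393 to 3210 in microglia, 3241 to 4302 between neuron classes and 0 to 68 for the interaction. Plain totals turned the split between neuron classes from 2444 higher and 2428 lower to 4890 and 1723, with the median of all genes at 0.19 in place of 0.04.

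Of the single genes, none that passed the threshold changed direction. Those that did not pass and changed sign were, in glutamatergic neurons, Gabra2 (-0.16 thinned), Gabrd (0.020 with at least 1 transmitter UMI), Gabra3 (0.00082 with no filter) and Gabra5 (0.025 with at least 5 UMIs). In GABA neurons they were Gabrb2 (-0.046 thinned, -0.084 with Dlx6os1), Gabrb1 (-0.0057 with plain totals) and Gabra3 (-0.081 with plain totals, -0.14 thinned, -0.063 without Dlx6os1). Elsewhere they were Gabra3 in microglia (0.39 without the deepest nuclei) and Gabra5 between neuron classes (0.028 with plain totals). For the interaction they were Gabra2 (0.015 with no filter, 0.0027 in DESeq2, 0.059 at a 90% share, 0.079 without the deepest nuclei, 0.26 thinned, 0.093 with at least 1 UMI) and Gabra3 (-0.013 with plain totals, -0.083 thinned). Leaving out 1 library crossed 0 in glutamatergic neurons for Gabra2 -0.026 to 0.31, Gabrb2 -0.37 to 0.062, Gabrd -0.71 to 0.0049, Gabra4 -1.04 to 0.11, Gabrb1 -0.35 to 0.088, Gabra3 -0.25 to 0.24, Gabra5 -0.29 to 0.15. In GABA neurons it did so for Gabra2 -0.054 to 0.35, Gabrb2 -0.038 to 0.40, Gabrd -0.87 to 1.15, Gabra4 -0.30 to 0.69, Gabrb1 -0.0049 to 0.29, Gabra3 -0.033 to 0.092. In astrocytes it did so for Gabra4 -0.29 to 0.11, Gabra3 -0.40 to 0.47, Gabra5 -0.25 to 0.20, and in OPC for Gabra2 -0.044 to 0.63, Gabrb2 -0.25 to 0.11, Gabra4 -0.22 to 1.41, Gabrb1 -0.12 to 0.38. In oligodendrocytes it did so for Gabrd -0.21 to 1.22, Gabra4 -0.028 to 1.26, and in microglia for Gabrd -0.65 to 0.20, Gabra4 -0.36 to 0.70, Gabrb1 -0.070 to 0.64, Gabra3 -0.64 to 0.27. For the interaction it did so for Gabra2 -0.092 to 0.14, Gabrd -0.24 to 1.22, Gabra3 -0.21 to 0.32.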

Other observations

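The 8689 neurons in neither gate held levels of Gabra4, Gabrd and Gabrb2 between those of the gated classes in each library. Gabra4 measured 121 and 179.7 CPM there in NS and 193 and 92.4 CPM in COL, and Gabrd 17.5 and 33.2 CPM in NS and 41.2 and 18.5 CPM in COL. Gabrb2 measured 329.6 and 437 CPM in NS and 374 and 347 CPM in COL.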
